A study of Mus musculus with 5 samples.

Results

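The T cell receptor is a pair of chains, alpha and beta, and the part of each chain that meets antigen is assembled during development from gene segments. A variable (V) segment is joined to a joining (J) segment, with a diversity segment between them in the beta chain, and the joined exon is spliced to a constant region. Each T cell thus transcribes mainly the V segments it has joined, so the V segment transcripts of a sorted population describe the receptors its cells carry. The members described here are all genes of the deposited table whose symbol starts with Trav (alpha chain V segments) or Trbv (beta chain V segments), 132 of its 35275 genes. Of these, 109 were Trav segments and 23 were Trbv segments.

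RNA was sequenced from T cells sorted from the spleen of C57BL/6 mice labelled wild type (WT) and 3 months old, in 5 libraries without any named treatment. There were 2 libraries of CD4 Treg (CD4+ regulatory T cells), 1 of CD8 Treg (CD8+ regulatory T cells) and 2 named CD49lo, which by elimination are the CD8+ effector-like cells that the series sets against both Treg types. The labels give a CD8 enrichment before the sort for every library, CD4 Treg included, and do not say how many animals were pooled or whether replicates came from separate animals. Except where a limit is stated, the p-values below set differences between groups against the spread between these libraries, and part of that spread may be technical. The spread comes from the CD4 Treg and CD49lo replicates only, so no p-value measures the spread of CD8 Treg. Every CD8 Treg value rests on n = 1.

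The libraries held 5441444 to 8354971 reads in genes, recovered from deposited RPKM (reads per kilobase of gene, scaled to library depth). Foxp3, the transcription factor of CD4 Tregs, stood at 146 RPKM in each CD4 Treg library and at 0.387 to 1.66 RPKM elsewhere. Cd8a was at 0.412 and 0.352 RPKM in CD4 Treg and at 187 to 255 elsewhere, so the lineage genes went with the labels. The 7 markers of natural killer cells summed to 3.35 and 3.73 RPKM in the CD4 Treg replicates, 369 in the CD8 Treg library, and 547 and 2007 in CD49lo, with Ncr1 and Klrd1 at 0 in CD4 Treg. The 6 measured markers of monocytes and macrophages summed to 3.43 and 7.86 RPKM in the CD4 Treg replicates, 113 in the CD8 Treg library, and 285 and 334 in CD49lo, with Fcgr1 at 0 in CD4 Treg. The 4 neutrophil markers summed to 0 and 7.18 RPKM in CD4 Treg, to 149 in CD8 Treg and to 134 and 242 in CD49lo, with Ly6g at 0 in all libraries but CD49lo replicate 1. Xist, transcribed from the inactive X chromosome, was at 35.5 and 27.2 RPKM in CD4 Treg and at most 0.0834 in the other libraries, and the Y-linked Ddx3y was at 18.3 to 27.4 RPKM in CD8 Treg and CD49lo and at most 0.0701 in CD4 Treg. Sex of the animals and cell type therefore cannot be told apart in comparisons with CD4 Treg, and the part of the cell markers in the results below was not tested.

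The V segments that carried the differences below are shown by their 3′ ends, because that end holds the germline start of CDR3, the loop that lies over the antigenic peptide. Each line gives the last 75 bases of the coding part of a Trbv segment in the GENCODE M21 annotation of GRCm38 (the mm10 assembly), 5′ to 3′ on the coding strand. Capitals mark the stretch from the conserved cysteine codon, taken as the first cysteine codon after the last tyrosine codon that has one downstream, to the end of the segment. The first 6 are the segments that were higher in CD4 Treg than in CD49lo.
Trbv31 (chr6:41557693-41557767, reverse strand): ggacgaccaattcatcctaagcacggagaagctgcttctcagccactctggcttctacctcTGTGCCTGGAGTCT
Trbv2 (chr6:41047921-41047995, forward strand): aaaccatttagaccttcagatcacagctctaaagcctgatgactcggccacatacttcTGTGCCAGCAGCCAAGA
Trbv3 (chr6:41048754-41048828, forward strand): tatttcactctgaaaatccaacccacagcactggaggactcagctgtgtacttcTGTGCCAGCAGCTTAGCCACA
Trbv5 (chr6:41062729-41062803, forward strand): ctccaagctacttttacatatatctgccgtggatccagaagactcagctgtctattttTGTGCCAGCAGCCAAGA
Trbv13-2 (chr6:41121758-41121832, forward strand): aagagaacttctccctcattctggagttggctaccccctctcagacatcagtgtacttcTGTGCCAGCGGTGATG
Trbv13-3 (chr6:41130511-41130585, forward strand): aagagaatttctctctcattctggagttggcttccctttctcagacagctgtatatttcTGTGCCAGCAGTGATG
The next 2 were each high in a single CD49lo library, and the last 4 held a larger share of Trbv reads in CD8 Treg than in either CD4 Treg library.
Trbv1 (chr6:40891811-40891885, forward strand): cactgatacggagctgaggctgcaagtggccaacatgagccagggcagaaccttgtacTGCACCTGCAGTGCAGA
Trbv13-1 (chr6:41116394-41116468, forward strand): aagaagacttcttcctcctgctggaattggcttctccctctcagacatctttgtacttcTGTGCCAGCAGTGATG
Trbv12-1 (chr6:41113993-41114067, forward strand): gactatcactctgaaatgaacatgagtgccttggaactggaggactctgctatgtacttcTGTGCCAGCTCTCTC
Trbv12-2 (chr6:41119290-41119364, forward strand): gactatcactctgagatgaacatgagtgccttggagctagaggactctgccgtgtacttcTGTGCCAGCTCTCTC
Trbv14 (chr6:41135542-41135616, forward strand): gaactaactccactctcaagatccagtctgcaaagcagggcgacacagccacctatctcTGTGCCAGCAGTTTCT
Trbv17 (chr6:41163482-41163556, forward strand): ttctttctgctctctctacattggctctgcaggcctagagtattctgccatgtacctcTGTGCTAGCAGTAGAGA

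Of the 22 Trbv segments with a coding frame in that annotation, 10 opened this stretch with TGTGCCAGCAG, the commonest opening of 11 bases (coding strand, searched only at the cysteine codon), and none of the 102 Trav segments did. The 12 other Trbv segments, such as Trbv1, Trbv31, Trbv12-1 and Trbv12-2 above, opened differently. Segments with that opening gave 67.6% and 64.4% of Trbv reads in the CD4 Treg replicates, 58.6% in the CD8 Treg library, and 65.6% and 45.2% in CD49lo. CD49lo replicate 2, which was the lowest, was the library with the high share of Trbv1. The pair Trbv12-1 and Trbv12-2 was 88.2% identical over the coding part, and the Trbv13 segments were 85.3% to 90.6% identical to each other. At least 98.8% of the 50-base windows of every Trbv segment occurred in no other V segment of the annotation, so reads of these segments can be told apart at that length.

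The summed level of Trbv segments differed between the groups. Trbv segments took 494 and 464 RPM (reads scaled to library depth, without gene length) in the CD4 Treg replicates, 293 in the CD8 Treg library, and 368 and 412 in CD49lo, from 1782 to 3076 reads a library. The Trbv sum was lowest in CD8 Treg, and the groups did not overlap. Trav segments took 179 and 189 RPM in the CD4 Treg replicates, 161 in the CD8 Treg library, and 149 and 103 in CD49lo, from 676 to 1246 reads. The 10 markers of T cells, among them the CD3 and constant region genes, summed to 4719 and 4580 RPKM in the CD4 Treg replicates, 3195 in the CD8 Treg library, and 3664 and 3875 in CD49lo, in the same order as the Trbv sums by group. In sorted bulk samples, fewer cells that carry a segment and less RNA per cell cannot be told apart. Per read of the beta constant genes Trbc1 and Trbc2, Trbv reads numbered 0.579 and 0.597 in the CD4 Treg replicates, 0.573 in the CD8 Treg library, and 0.559 and 0.619 in CD49lo, a range in which the groups overlapped. Each segment is therefore described below both by its level and by its share of the reads of its own chain, which is RPKM times gene length over the chain's sum.

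Trbv usage was broad in every library. Of the 23 segments, 22, 22, 21, 21 and 20 had reads in CD4 Treg replicates 1 and 2, CD8 Treg, and CD49lo replicates 1 and 2, and Trbv10, a pseudogene in the annotation, had none. A count of 0 allows a share of up to 0.0979%, 0.119%, 0.168%, 0.0975% and 0.111% in that order (3 reads), and these limits and all intervals cover counting error only. The effective number of segments, which is the number of equally used segments with the same Shannon diversity, was 15.03 and 15.35 in the CD4 Treg replicates, 16.6 in the CD8 Treg library, and 14.5 and 13.1 in CD49lo. Trbv3 led in both CD4 Treg libraries and in CD8 Treg, Trbv13-1 in CD49lo replicate 1 and Trbv1 in CD49lo replicate 2.

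**Figure D1:**
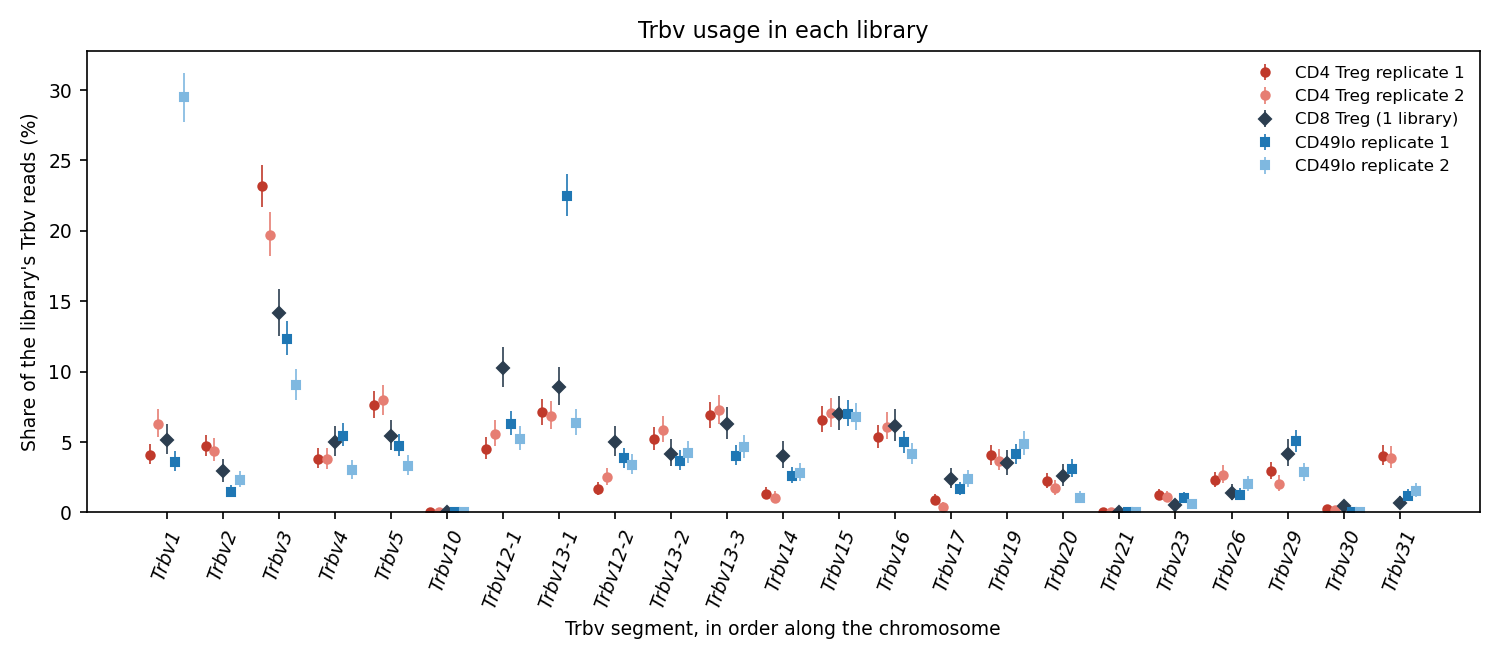
Share of each library's Trbv reads (%, vertical axis) for the 23 Trbv segments in chromosome order, with exact 95% Clopper-Pearson intervals. Trbv3 was highest in the CD4 Treg libraries (red), while Trbv1 stood at 29.5% in CD49lo replicate 2 (light blue) and Trbv13-1 at 22.5% in CD49lo replicate 1 (dark blue).

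The first comparison asks how the receptor segments of CD4 Treg differ from those of CD49lo. In CD4 Treg, 6 Trbv segments were higher than in CD49lo and none passed as lower: Trbv31, Trbv2, Trbv3, Trbv5, Trbv13-3 and Trbv13-2. This is 6 of the 20 tested Trbv segments, where 9.45% of all 13298 genes tested passed as higher and 22.3% in either direction. The test was limma on log2(RPKM + 0.5), scaled between libraries over all genes, at an adjusted p under 0.05 (Benjamini-Hochberg over all genes tested). The median log2 fold change of the 20 was 0.37, with 14 above 0, beside -0.03 over all genes tested. Being tested depended in part on having reads, so this count is a description of the segments that passed the filter.

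Trbv3 (Tcrb-V16 in older nomenclature; mm10 chromosome 6, 41048394 to 41048824) was the most used segment of CD4 Treg. Its level was 330 and 264 RPKM in the CD4 Treg replicates, 120 in the CD8 Treg library, and 131 and 108 in CD49lo. Both CD4 Treg libraries lay above the 3 others, and the CD8 Treg value lay between the CD49lo values. The log2 fold change of CD4 Treg over CD49lo was 1.34 ± 0.18 (SE; adjusted p = 0.000565). Of Trbv reads it took 23.2% and 19.7% in the CD4 Treg replicates, 14.1% in the CD8 Treg library, and 12.4% and 9.06% in CD49lo.

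Trbv31 (Tcrb-V14; 41557691 to 41558371), the only one of the 23 that lies on the reverse strand, showed the steepest steps. Its level was 59.4 and 53.9 RPKM in the CD4 Treg replicates, 5.92 in the CD8 Treg library, and 13.3 and 19.2 in CD49lo, so that the groups did not overlap and CD8 Treg was lowest. The log2 fold change over CD49lo was 1.82 ± 0.33 (SE; adjusted p = 0.0036), and that of CD8 Treg over CD49lo was -1.23 ± 0.41 (adjusted p = 0.131). Its share of Trbv reads was 4.01% and 3.88% in the CD4 Treg replicates, 0.673% in the CD8 Treg library (exact 95% interval 0.35 to 1.17), and 1.20% and 1.55% in CD49lo.

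Trbv2 (Tcrb-V4) and Trbv5 (Tcrb-V1) lie to either side of Trbv3 on the chromosome, with Trbv4 between Trbv3 and Trbv5. Trbv2 reached 67.5 and 59.3 RPKM in the CD4 Treg replicates, 24.9 in the CD8 Treg library, and 15.7 and 27.9 in CD49lo (a log2 fold change over CD49lo of 1.60 ± 0.32, adjusted p = 0.0063). Trbv5 was at 111 and 108 RPKM, 46.8 RPKM, and 51.2 and 40.2 RPKM in those libraries (1.29 ± 0.22, adjusted p = 0.0026). For both, each CD4 Treg library was above every other library. Trbv4, at 55.6 and 51.5 RPKM in the CD4 Treg replicates, 43.2 in the CD8 Treg library, and 59.3 and 36.4 in CD49lo, did not pass (log2 fold change 0.23 ± 0.29, adjusted p = 0.627).

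The Trbv13 segments (the Tcrb-V8 group) differed in their calls. Trbv13-2 (Tcrb-V8.2) and Trbv13-3 (Tcrb-V8.1) were higher in CD4 Treg than in CD49lo, with log2 fold changes of 0.81 ± 0.23 (adjusted p = 0.033) and 1.03 ± 0.21 (adjusted p = 0.0073). Trbv13-2 reached 80.9 and 85.3 RPKM in the CD4 Treg replicates, 38.2 in the CD8 Treg library, and 42.4 and 54.4 in CD49lo. Trbv13-3 was at 100.1 and 99.5 RPKM, 54.2, and 43.7 and 56.0 across these libraries, so that for both segments each CD4 Treg library lay above every other library. Trbv13-1 (Tcrb-V8.3) reached 105 and 95.2 RPKM in the CD4 Treg replicates, 78.4 in the CD8 Treg library, and 248 and 78.4 in CD49lo, and its fold change of -0.45 ± 0.43 did not pass (adjusted p = 0.508). It was 0.39 without CD49lo replicate 1 and -1.29 without CD49lo replicate 2. Whether the fold changes of the 3 segments differ was not tested.

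These Trbv calls depended on the replicates. Without CD4 Treg replicate 1 or without CD4 Treg replicate 2, 1 of the 6 passed, Trbv3 (log2 fold changes 1.17 and 1.501, adjusted p = 0.0244 and 0.0165). Without either CD49lo library none passed, and at 1 residual degree of freedom the adjusted p of Trbv3 was 0.0927 without replicate 1 and 0.119 without replicate 2. In those fits the log2 fold changes of the 6 segments kept their sign, from 0.65 for Trbv13-2 to 2.06 for Trbv31. Calls also fell over all genes, from 22.3% to 11.1% and 9.86% without CD4 Treg replicate 1 and 2, and to 3.4% and 4.09% without CD49lo replicate 1 and 2. Without a filter on low values none of the 6 passed, and 704 of 21346 genes did (3.3%). Limma-voom on the recovered reads called the same 6, where 22% of all genes passed.

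**Figure D2:**
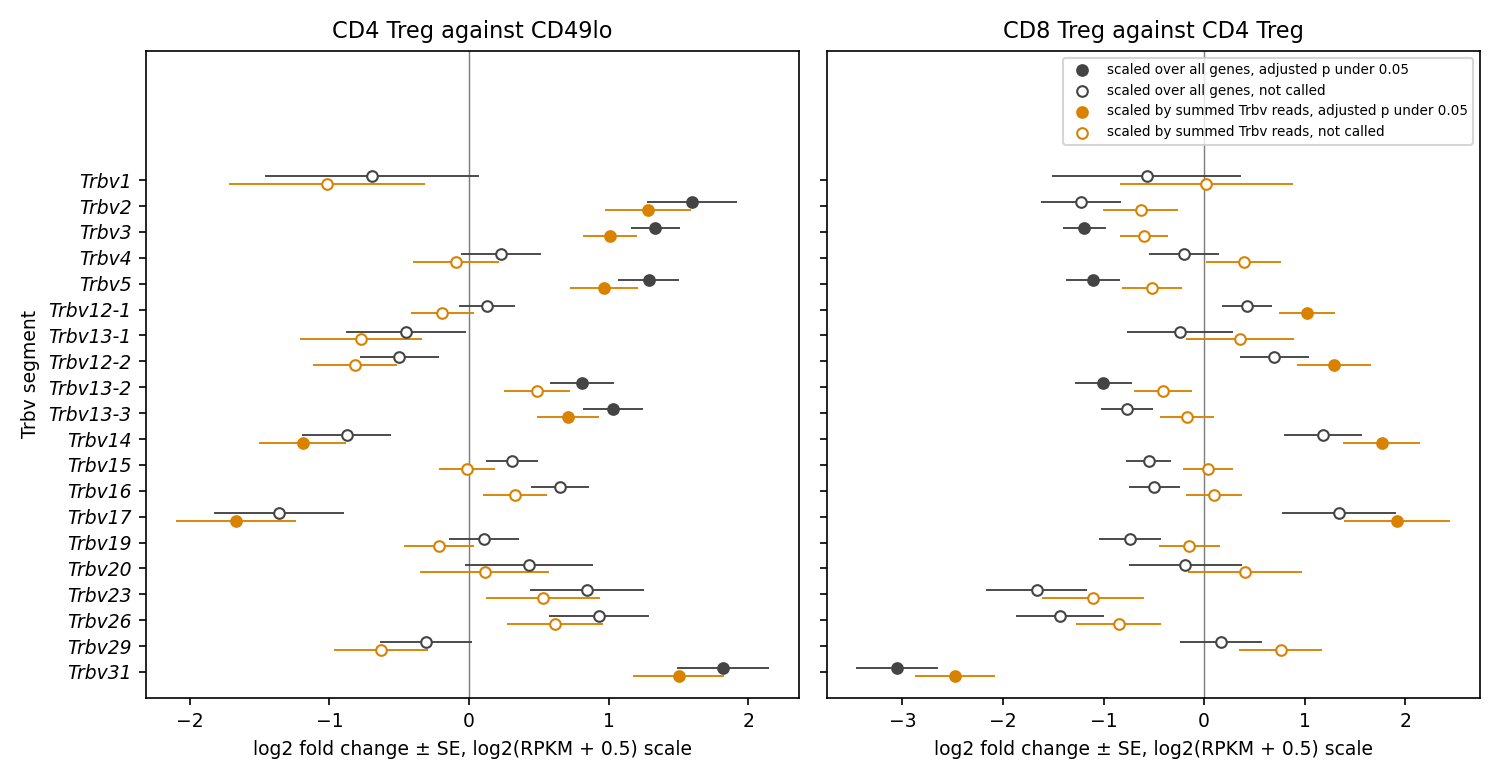
log2 fold change ± SE of the 20 tested Trbv segments for CD4 Treg against CD49lo (left) and CD8 Treg against CD4 Treg (right), with libraries scaled over all genes (grey) or by their summed Trbv reads (orange), filled where the adjusted p was under 0.05. On the left 6 grey points are filled and all lie above 0, and on the right 4 grey points are filled below 0 while 4 of the 5 filled orange points lie above 0.

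Relative to the other Trbv segments, the same comparison also had segments that were lower in CD4 Treg. With each library scaled to its summed Trbv reads, a fold change is one of usage within the chain, and 7 segments passed, 5 higher and 2 lower, of which 5 also passed above. The CD49lo sums include Trbv13-1 at 22.5% of Trbv reads in replicate 1 and Trbv1 at 29.5% in replicate 2. A large share of a single segment lowers the shares of the others, and scaling without these 2 segments was not done. Under this scaling 4.9% of all genes passed as higher and 22.5% as lower (27.4% in all), and the median log2 fold change of all genes was -0.32. The higher segments were Trbv31 (1.501), Trbv2 (1.28), Trbv3 (1.01), Trbv5 (0.96) and Trbv13-3 (0.71). The lower were Trbv14 at -1.19 ± 0.31 (adjusted p = 0.0167) and Trbv17 at -1.67 ± 0.43 (adjusted p = 0.0161). Trbv14 (Tcrb-V13) took 1.31% and 1.03% of Trbv reads in CD4 Treg, against 2.60% and 2.81% in CD49lo. Trbv17 (Tcrb-V9) took 0.881% and 0.396% in CD4 Treg, against 1.66% and 2.37% in CD49lo. Neither passed with libraries scaled over all genes (log2 fold changes -0.88 and -1.36, adjusted p = 0.081 and 0.066).

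The second comparison sets the 2 Treg types against each other. In CD8 Treg, 4 Trbv segments were lower than in CD4 Treg and none passed as higher, of 20 tested, where 8.35% of all genes passed as lower, 8.51% as higher and 16.9% in either direction. They were Trbv31, Trbv3, Trbv5 and Trbv13-2. The comparison shares the CD4 Treg libraries with the first one. The log2 fold change was -3.05 ± 0.41 for Trbv31 (SE; adjusted p = 0.00096), -1.19 ± 0.21 for Trbv3 (adjusted p = 0.005), -1.11 ± 0.27 for Trbv5 (adjusted p = 0.021) and -1.003 ± 0.28 for Trbv13-2 (adjusted p = 0.04). Trbv2, at -1.22 ± 0.39, did not pass (adjusted p = 0.066). The median over the 20 segments was -0.56, beside 0.02 over all genes tested, and the summed Trbv level was itself lower in CD8 Treg.

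Scaled to summed Trbv reads, the split of calls turned round: 4 segments were higher in CD8 Treg and 1 was lower, and only Trbv31 was shared with the 4 calls above. This scaling moved the median log2 fold change of all genes to 0.55, with 32.6% of all genes passing as higher and 4.34% as lower (36.9% in all). The lower segment was Trbv31 (-2.48 ± 0.40, adjusted p = 0.00131). The higher segments were Trbv17 (1.91 ± 0.53, adjusted p = 0.0189), Trbv14 (1.76 ± 0.38, adjusted p = 0.00626), Trbv12-2 (1.29 ± 0.37, adjusted p = 0.0213) and Trbv12-1 (1.02 ± 0.28, adjusted p = 0.0174).

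Trbv12-1 and Trbv12-2 (Tcrb-V5.2 and Tcrb-V5.1), which lie to either side of Trbv13-1, both had their highest share in CD8 Treg. Trbv12-1 was at 10.3% of Trbv reads in CD8 Treg (exact interval 8.90 to 11.8), 4.54% and 5.58% in CD4 Treg, and 6.31% and 5.25% in CD49lo. Trbv12-2 was at 4.99% in CD8 Treg, 1.63% and 2.50% in CD4 Treg, and 3.84% and 3.37% in CD49lo. By level the steps were smaller. Trbv12-1 stood at 81.0 RPKM in CD8 Treg, 60.2 and 69.7 in CD4 Treg, and 62.4 and 58.2 in CD49lo. Over CD4 Treg its log2 fold change was 0.43 ± 0.25 (adjusted p = 0.287) with libraries scaled over all genes. Trbv14 stood at 4.04% of Trbv reads in CD8 Treg and Trbv17 at 2.36%, above both CD4 Treg libraries in each case.

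The calls between the Treg types also changed with the replicates. Trbv31 passed without CD4 Treg replicate 1 (adjusted p = 0.0299), and Trbv31 and Trbv3 passed without CD4 Treg replicate 2 (adjusted p = 0.0377 and 0.0438). With no filter on low values 1 of the 20 passed, and with a filter of 1 RPKM 2 passed, where 5.98% and 13.6% of all genes passed against 16.9% in the test as described. None of the 4 passed without CD49lo replicate 1 or without CD49lo replicate 2, where the adjusted p of Trbv31 was 0.0718 and 0.0759 at the same fold change, since those libraries enter only through the spread. Over all genes 7.37% and 5.99% passed without CD4 Treg replicate 1 and 2, and 1.24% and 2.51% without CD49lo replicate 1 and 2. The lone CD8 Treg library was taken to vary as much as the groups with replicates.

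The third comparison, CD8 Treg against CD49lo, called no Trbv segment of 20, where 5.3% of all genes passed, 1.71% as higher and 3.59% as lower in CD8 Treg. An unadjusted p under 0.05 was reached by 2 of the 20, and limma-voom on the recovered reads, like the scaling to summed Trbv reads, also called none. Under the latter scaling 6.33% of all genes passed, 3.65% as higher and 2.68% as lower, and by limma-voom 5.18% passed. The median log2 fold change was 0.00, and the range ran from -1.27 for Trbv1 to 0.56 for Trbv12-1. The value for Trbv1 was -2.84 without CD49lo replicate 1 and 0.30 without replicate 2. A p that misses the threshold does not show that usage was alike, and the SE was largest for Trbv1 (0.94) and Trbv17 (0.57).

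Trbv1 (Tcrb-V2; 40891296 to 40891885), the segment farthest upstream among the 23, was at 347 RPKM in CD49lo replicate 2 and at 38.0 in CD49lo replicate 1. It was at 58.0 and 83.5 RPKM in CD4 Treg and 43.3 in CD8 Treg. Its share was 29.5% of Trbv reads in CD49lo replicate 2 (exact interval 27.8 to 31.2; 797 reads), and 3.61% to 6.30% in the 4 other libraries. Against CD4 Treg the sign of its fold change depended on which CD49lo library was kept: the log2 value of CD4 Treg over CD49lo was -2.27 without CD49lo replicate 1 and 0.88 without CD49lo replicate 2, and neither passed.

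Trbv13-1 (41116036 to 41116468) was high in the other CD49lo library, at 22.5% of Trbv reads in replicate 1 (exact interval 21.03 to 24.01; 692 reads) against 6.36% in replicate 2. The remaining libraries held 6.85% to 8.92%. Each of the 2 CD49lo libraries thus had 1 Trbv segment more than 3 times its share in the other CD49lo library. CD49lo replicate 2 differed from replicate 1 in other receptor genes as well. Reads of the constant gene Trbc1 made up 26.8% of Trbc1 and Trbc2 reads in CD49lo replicate 2 (exact interval 25.5 to 28.1) and 47.9% in replicate 1, with 36.3% to 41.9% in the other libraries. The natural killer marker sum given above was 2007 RPKM in that library, 1580 of it from Gzma, against 547 in replicate 1. The part of these in the share of Trbv1 was not tested.

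Distances between libraries summarise these shares. The distance is the sum of absolute differences in share over the segments, divided so that libraries with no segment in common are at 100% and identical ones at 0%. The CD4 Treg replicates were 7.03% apart, where counting alone gives about 4.38%, and the CD49lo replicates were 30.6% apart, where counting gives 4.25%. CD8 Treg was 20.3% and 18.8% from the CD4 Treg libraries and 17.2% and 27.4% from the CD49lo libraries. CD4 Treg and CD49lo libraries were 26.6% to 31.8% apart. Of the 6 distances between a CD49lo library and one of another group, 1 (31.8%) was larger than the distance between the CD49lo replicates. With 2 libraries against 1 or 2, no exact permutation test of such a value can reach 0.05, and none was made.

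Without Trbv1 and Trbv13-1, left out after their values were seen, the order changed. The CD49lo replicates were then 12.6% apart and the CD4 Treg replicates 6.61%. CD8 Treg was 9.91% and 12.4% from the CD49lo libraries, within the distance between the CD49lo replicates. It was 21.4% and 19.8% from the CD4 Treg libraries, and CD4 Treg and CD49lo libraries were 18.9% to 22.2% apart. Over the 21 remaining segments, Trbv usage of CD8 Treg thus lay nearer to that of both CD49lo libraries than to that of either CD4 Treg library, a difference that was described and not tested. The segments left out were those high in a CD49lo library, so shorter distances to CD49lo follow in part from the choice. Over all segments this order did not hold. Over the Trav subgroups CD8 Treg was nearer to the CD4 Treg libraries (14.3% and 12.1%) than to the CD49lo libraries (21.8% and 14.96%).

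**Figure D3:**
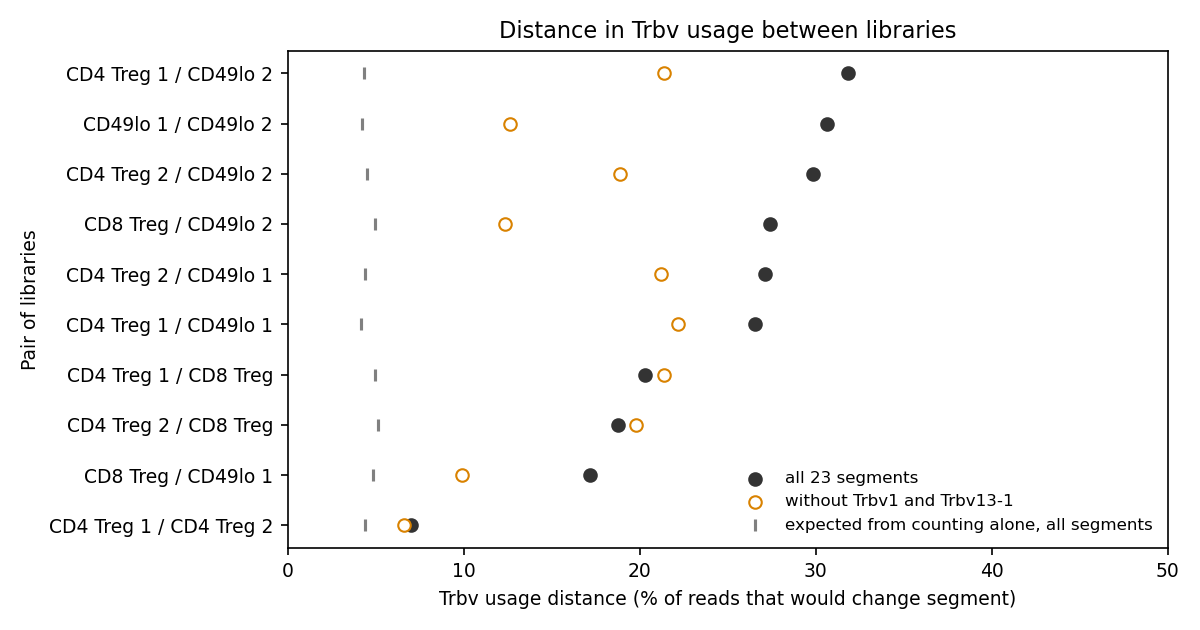
Distance in Trbv usage (%, horizontal axis) between each pair of the 5 libraries, over all 23 segments (filled) and without Trbv1 and Trbv13-1 (open), with the distance expected from counting alone (grey bars). The 2 CD49lo libraries move from 30.6% to 12.6% and their distances to CD8 Treg fall to 12.4% or less, while the 4 distances between CD4 Treg and CD49lo stay at 18.9% or more.

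Trav segments are harder to tell apart, because the mouse alpha locus carries copies of a whole block of V segments, whose members are lettered d and n after the number. Of the 109 Trav segments, 35 were lettered d, 28 lettered n and 46 unlettered. No read was assigned to 33 of them in any library: 16 lettered d, 16 lettered n and 1 unlettered. Of these 33, 29 had no 50-base window that was absent from every other V segment of the annotation, and the other 4 (Trav4d-2, Trav9n-1, Trav5d-3 and Trav5n-3) were annotated as pseudogenes. Of the 76 segments with reads, 7 had no such window, and the median share of such windows was 50.8%. How the deposited values treat reads that match several places is not given in the sources used here.

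The next lines show the last 60 bases of the Trav segments concerned, with capitals as above. Trav10, Trav10d and Trav10n are identical over these bases, and 98.3% to 99.1% identical over the whole coding part.
Trav10 (chr14:53506227-53506286, forward strand): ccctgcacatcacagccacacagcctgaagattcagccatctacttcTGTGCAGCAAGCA
Trav10d (chr14:52811437-52811496, forward strand): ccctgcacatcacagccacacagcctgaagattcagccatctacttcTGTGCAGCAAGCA
Trav10n (chr14:53122551-53122610, forward strand): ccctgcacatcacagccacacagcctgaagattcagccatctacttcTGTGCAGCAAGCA
Trav9d-3 and Trav9n-3 are identical over the whole coding part, and neither had a read in any library, while Trav9-4 had reads in every library.
Trav9d-3 (chr14:52921053-52921112, forward strand): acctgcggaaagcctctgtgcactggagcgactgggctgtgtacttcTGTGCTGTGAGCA
Trav9n-3 (chr14:53232043-53232102, forward strand): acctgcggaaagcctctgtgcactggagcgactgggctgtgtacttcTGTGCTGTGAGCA
Trav9-4 (chr14:53676571-53676630, forward strand): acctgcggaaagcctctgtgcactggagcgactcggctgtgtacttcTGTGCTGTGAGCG
Trav16 and Trav8n-2 were the most used segments of CD49lo replicate 1.
Trav16 (chr14:53743646-53743705, forward strand): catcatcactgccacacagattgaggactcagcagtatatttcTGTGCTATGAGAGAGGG
Trav8n-2 (chr14:53346365-53346424, forward strand): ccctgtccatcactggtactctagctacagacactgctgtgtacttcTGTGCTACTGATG
Trav3-4 had no read in CD4 Treg while the 91.0% identical Trav3-3 had reads in all libraries.
Trav3-4 (chr14:53777517-53777576, forward strand): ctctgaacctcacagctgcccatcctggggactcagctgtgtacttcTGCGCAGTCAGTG
Trav3-3 (chr14:53666447-53666506, forward strand): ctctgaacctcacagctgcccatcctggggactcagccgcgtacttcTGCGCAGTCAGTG
The lack of reads in Trav9d-3, Trav9n-3 or the like is therefore no measure of their use. The same holds for Trav11 and Trav11d, which make the alpha chain of invariant natural killer T cells with Traj18: both were at 0 in every library, are 99.7% identical and share all their 50-base windows with another segment.

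**Figure D4:**
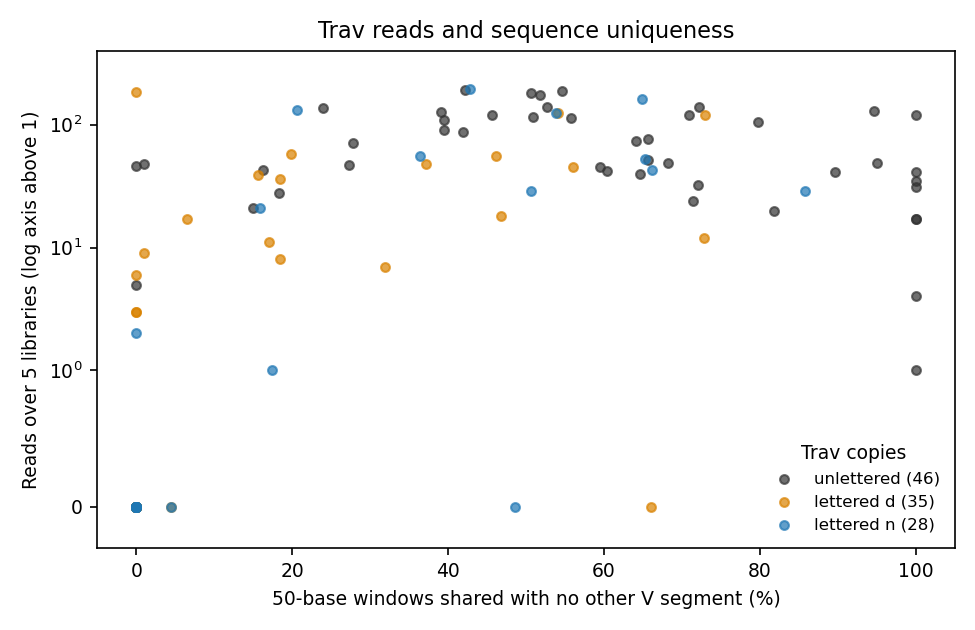
Reads summed over the 5 libraries (vertical, log axis above 1) against the share of 50-base windows found in no other V segment (%, horizontal), for the 109 Trav segments by copy. The 33 segments at 0 reads lie almost all at 0% on the left, where 29 of them have no window of their own.

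Pooled into the 21 subgroups given by the number in the name, Trav14 led in every library but CD49lo replicate 1, which Trav8 led. Trav14 took 15.9% and 20.1% of Trav reads in the CD4 Treg replicates, 17.9% in the CD8 Treg library, and 12.9% and 16.0% in CD49lo. The other subgroups named here were chosen after their values were seen. Trav9 took 10.1% and 7.78%, 5.42%, and 5.78% and 11.5% in that order, with overlapping replicated groups. Trav12 was at 7.16% in CD8 Treg and at 4.14% to 4.88% in the 4 other libraries. Trav10 was at 5.77% and 4.86% in the CD4 Treg replicates, 4.30% in the CD8 Treg library, and 0.963% and 2.81% in CD49lo. Trav17, a subgroup of a single segment, was at 0.901% and 0.875% in the CD4 Treg replicates, 1.33% in the CD8 Treg library, and 0.241% and 0 in CD49lo, where a count of 0 allows up to 0.444%. Trav1, which makes the alpha chain of mucosal-associated invariant T cells, had 0 to 7 reads a library. Shares in the CD4 Treg and CD49lo replicates did not overlap in 8 of the 21 subgroups. Of these, 5 were higher in CD4 Treg (Trav7, Trav6, Trav10, Trav17 and Trav1) and 3 higher in CD49lo (Trav13, Trav8 and Trav2). With 2 libraries against 2, a random order separates the groups with a probability of 0.333, so this count is no more than a description. The share of all genes without overlap was not computed. Trav1 had 3 and 7 reads in CD4 Treg and 3 and 0 in CD49lo. Trav7, the largest of the 5, took 11.3% and 12.5% in the CD4 Treg replicates, 8.50% in the CD8 Treg library, and 8.03% and 7.10% in CD49lo.

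CD49lo replicate 1 again stood apart in some subgroups, named after their values were seen. The Trav8 subgroup took 16.9% of its Trav reads and the Trav16 subgroup 16.2%, against 9.32% and 5.77% in CD49lo replicate 2. The other libraries held 6.31% to 7.78% in Trav8 and 5.41% to 6.71% in Trav16. Single segments led this: Trav16 had 108 of 1246 Trav reads in CD49lo replicate 1 (8.67%) and 13 to 26 reads in every other library, and Trav8n-2 had 92 reads there (7.38%). CD49lo replicate 2 was led by Trav9n-4, with 7.69% of its Trav reads against 1.28% to 2.25% elsewhere. The libraries with a high Trbv13-1 and a high Trbv1 share were thus also the ones with the most concentrated Trav reads. The effective number of Trav segments was 48.6 and 46.0 in the CD4 Treg replicates, 48.6 in the CD8 Treg library, and 40.8 and 41.8 in CD49lo.

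**Figure D5:**
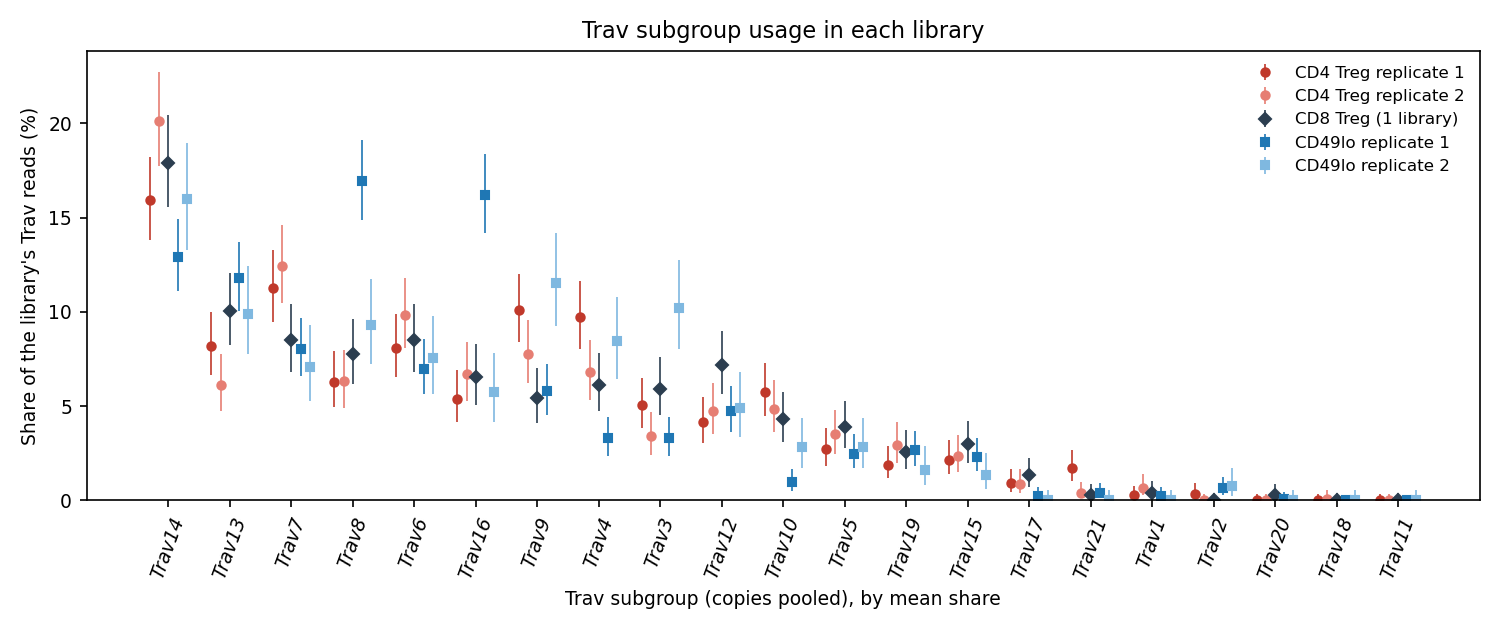
Share of each library's Trav reads (%, vertical axis) for the 21 Trav subgroups in order of mean share, with exact 95% Clopper-Pearson intervals. Trav8 and Trav16 stand at 16.9% and 16.2% in CD49lo replicate 1 (dark blue), and Trav10 is lower in both CD49lo libraries than in the 3 others.

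By single segment, 14 of the 56 tested Trav segments differed between CD4 Treg and CD49lo, 12 higher and 2 lower in CD4 Treg, beside 9.45% and 12.8% of all genes. The median log2 fold change was 0.77, while the summed Trav level was also higher in CD4 Treg. Scaled to summed Trav reads, 17 passed, 11 higher and 6 lower. There 2.76% and 20.7% of all genes passed as higher and lower (23.5% in all) and their median was -0.56. Under that scaling the SE followed the mean level and not a segment's own replicates, so calls under it are a description. Trav8d-2, with 74 and 0 reads in the CD49lo replicates, had an SE of 0.52 there and of 1.42 with libraries scaled over all genes. Of the 14, 10 passed under both scalings, and the other 4, Trav4-4-dv10, Trav10, Trav14-3 and Trav14n-3, did not pass within the chain. All called Trav segments had under 10 RPM in either group, so the values rest on few reads. Being tested depended in part on having reads in some library, and 53 of the 109 Trav segments were not tested. The Trav counts here and below are therefore a description of the segments that passed the filter. Of the 15 most used, those that passed were Trav4-4-dv10, Trav14-3, Trav14d-3-dv8, Trav14n-3 and Trav10, which were higher in CD4 Treg, and Trav8n-2, which was lower.

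Trav4-4-dv10 had 61 and 45 reads in the CD4 Treg replicates, 22 in the CD8 Treg library, and 25 and 23 in CD49lo (CD4 Treg over CD49lo at a log2 fold change of 1.45, adjusted p = 0.0158). Trav10 had 28 and 31 reads in the CD4 Treg replicates, 34 in the CD8 Treg library, and 12 and 15 in CD49lo (1.42, adjusted p = 0.0327). Trav8n-2 had 10 and 13 reads in the CD4 Treg replicates, 12 in the CD8 Treg library, and 92 and 34 in CD49lo (-1.83, adjusted p = 0.0207). For these 3 the replicated groups did not overlap in reads. Without either CD49lo library or without either CD4 Treg library, none of the 3 passed, and their adjusted p was 0.11 to 0.233. Of all 56 Trav segments, 4 passed when CD4 Treg replicate 1 was left out and 2 when replicate 2 was. Leaving out CD49lo replicate 1 gave 2 calls, leaving out replicate 2 gave 1, and over all genes the share that passed fell in these 4 fits from 22.3% to 11.1%, 9.86%, 3.4% and 4.09%. Limma-voom on the recovered reads left 2 Trav calls, where 22% of all genes passed.

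A few segments had reads in one group and hardly any in another; they and the called Trav segments named after them were chosen after their values were seen. Trav3-4 had 0 and 0 reads in the CD4 Treg replicates, 11 in the CD8 Treg library, and 9 and 12 in CD49lo. Set against the 3 reads per library that a count of 0 allows, it was 2.81-fold higher in CD49lo, by the mean, and 3.50-fold higher in CD8 Treg than in CD4 Treg. By library, the value for CD49lo was 2.08-fold in replicate 1 and 3.53-fold in replicate 2. These values take the counts above 0 as exact. Both comparisons passed in the limma test (adjusted p = 0.00231 and 0.00458). Trav10n had 29 and 18 reads in the CD4 Treg replicates, 6 in the CD8 Treg library, and 0 and 3 in CD49lo (adjusted p = 0.00258 for CD4 Treg against CD49lo). Trav9-4 had 40 and 28 reads in the CD4 Treg replicates, 2 in the CD8 Treg library, and 13 and 7 in CD49lo. It was lower in CD8 Treg than in CD4 Treg (log2 fold change -3.43, adjusted p = 0.00229) and higher in CD4 Treg than in CD49lo (2.02, adjusted p = 0.00903). Trav10n and Trav9-4 met the read filter only in CD4 Treg, and Trav3-4 only in CD8 Treg and CD49lo. These are the groups where they were high, so their p-values are a description and no independent support. Trav7-2 had 15 and 25 reads in the CD4 Treg replicates, 0 in the CD8 Treg library, and 4 and 2 in CD49lo, but has no 50-base window of its own, so its reads are uncertain.

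Between the Treg types, 6 Trav segments passed, 2 higher and 4 lower in CD8 Treg, beside 8.51% and 8.35% of all genes. The lower ones were Trav7-2, Trav9-4, Trav6-5 and Trav7-4, and the higher ones Trav3-4 and Trav5-1. Trav7-2, Trav6-5 and Trav9-4 met the read filter only in CD4 Treg and Trav5-1 only in CD8 Treg, each the group where it was high. Trav3-4, without a read in CD4 Treg, met it only in CD8 Treg and CD49lo. For these the count is a description. Trav7-4 had 39 and 37 reads in the CD4 Treg replicates, 8 in the CD8 Treg library, and 32 and 20 in CD49lo (a log2 fold change of -2.04, adjusted p = 0.0159). Scaled to summed Trav reads all 6 passed again, with 2 more that were higher in CD8 Treg (4 higher, 4 lower). There 5.46% and 3.8% of all genes passed as higher and lower (9.26% in all). The limit on the SE under this scaling, given above, holds here too. Without CD49lo replicate 1 only 1 passed, without CD49lo replicate 2 only 2. Leaving out CD4 Treg replicate 1 gave 4 calls and leaving out replicate 2 gave 3, beside the falls over all genes given above for this comparison. Limma-voom on the recovered reads called none, where 13.7% of all genes passed. In the limma test 12 of the 56 had an unadjusted p under 0.05.

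Between CD8 Treg and CD49lo, only Trav17 passed among the 56 Trav segments, beside 5.3% of all genes. It had 13 reads in CD8 Treg and 3 and 0 in CD49lo (log2 fold change over CD49lo 2.79, adjusted p = 0.0456), and 10 and 9 in CD4 Treg, where it was also higher than in CD49lo (2.35, adjusted p = 0.0129). Trav17 met the read filter only in CD8 Treg and CD4 Treg, the groups where it was higher, so these p-values are a description. Trav17 is the only segment of its number, and every 50-base window of it is its own. It did not pass with a pseudocount of 0.1 RPKM (adjusted p = 0.123), with no filter (0.235), with a filter of 1 RPKM (0.118) or by limma-voom (0.270). The 1, 2, 2 and 0 Trav segments called in those settings were other ones. Over all genes 5.07%, 2.72%, 2.88% and 5.18% passed there. Trav17 did not stay called when any 1 of the replicated libraries was left out, fits in which calls over all genes fell as well. The log2 fold change of Trav17 was 3.47 without CD49lo replicate 1 and 2.12 without CD49lo replicate 2. Scaled to summed Trav reads 4 passed, beside 0.376% and 6.24% of all genes as higher and lower (6.62% in all). Trav17 (2.62) and Trav7d-3 (2.70) were higher, and Trav8n-2 (-2.21) and Trav6-5 (-2.43) lower. Here as well the SE under this scaling has the limit given above.

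Trav distances between groups overlapped the distance between the CD49lo replicates. Over single segments the CD4 Treg replicates were 25.8% apart and the CD49lo replicates 36.7%, and pairs of different groups 31.6% to 38.1%. Counting alone gives 12.4% to 15.1% for these pairs, against 4.18% to 5.13% for the Trbv pairs. Over subgroups the CD4 Treg replicates were 11.5% apart and the CD49lo replicates 23.8%, and CD8 Treg was 14.3% and 12.1% from the CD4 Treg libraries. It was 21.8% and 14.96% from CD49lo replicates 1 and 2. The CD4 Treg libraries were 26.9% and 26.5% from CD49lo replicate 1, and 13.0% and 19.8% from CD49lo replicate 2.

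Among the CD3 genes, which encode the signalling partners of both chains, Cd247 was higher in CD4 Treg than in CD49lo (log2 fold change 0.56 ± 0.11 with adjusted p = 0.0043) and lower in CD8 Treg than in CD4 Treg (-0.86 ± 0.13, adjusted p = 0.0019). Cd3g was lower in CD8 Treg than in CD4 Treg (-0.39 ± 0.12, adjusted p = 0.0484). Trac, Trbc1 and Trbc2, the constant genes, passed in none of the 3 comparisons, with adjusted p of 0.0787 to 0.738. Trat1, which encodes a receptor-associated adaptor, reached 67.9 and 70.4 RPKM in the CD4 Treg replicates, 8.43 in the CD8 Treg library, and 16.3 and 26.3 in CD49lo (1.74 ± 0.26 for CD4 Treg over CD49lo, adjusted p = 0.0012). Of the J segment genes, 35 of 59 Traj rows were tested. Of these 6 were higher and 1 lower in CD8 Treg than in CD4 Treg, where 8.51% and 8.35% of all genes were. In the other comparisons 3 were lower in CD4 Treg than in CD49lo, beside 12.8% of all genes, and 1 was lower in CD8 Treg than in CD49lo, beside 3.59%. None of the 11 tested Trbj genes passed in any comparison.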

How the data were processed

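The table of 5 libraries was deposited by the authors as RPKM with a gene length per gene, although it is presented as counts. CASAVA, STAR and mm10 are listed, with no version, in the submitters' processing notes. RPKM times gene length gave whole reads for 100% of values (within 0.02). A segment's share is its reads over the sum of its chain, and levels are RPKM. Tests used limma (version 3.58.1, under R 4.3.3) on log2(RPKM + 0.5) after TMM scaling, with 5 libraries in 3 groups and 2 residual degrees of freedom, and with variances moderated along mean log2 RPM. Tested genes reached 10 depth-adjusted reads in some library and 15 reads over all libraries (13298 genes, 56 Trav and 20 Trbv). P-values are two-sided, Benjamini-Hochberg adjusted over all genes tested. Coordinates of segments are the deposited ones unless given with a sequence. The fitting code was tested on simulated data. Reference sequences were taken from GENCODE M21: 125 members matched by gene ID and 7 by symbol, and 52 had the same start and end.

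Named segments were every Trbv with at least 2% of Trbv reads in a library, the 15 Trav of highest mean share, called segments of at least 10 RPM (at most 6 per direction), and Trav1, Trav11, Trav11d, the subgroups Trav9, Trav12 and Trav14, and Trbv12, Trbv13 and Trbv29 segments. Others are marked as chosen after their values were seen. Members, lists and rules were chosen with earlier results of these data known. Alternatives were the pseudocount, the scaling, the filter, limma-voom, each replicate left out, and a replicate block. Python 3.11.15 was used for shares and exact intervals.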

Additional observations from a re-analysis of the deposited data

How the results depend on the processing

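The number of Trbv calls stayed within 1.5 times under a pseudocount of 0.1 or 1 RPKM, no scaling factor, scaling to the chain and limma-voom. The segments did not all stay: for CD8 Treg against CD4 Treg the 5 calls under scaling to the chain shared 1 with the 4, and the split turned from 0 higher and 4 lower to 4 and 1. Without a filter on low values, Trbv calls were 0 for CD4 Treg against CD49lo and 1 for CD8 Treg against CD4 Treg, and Trav calls 0 and, for CD8 Treg against CD49lo, 2. With a filter of 1 RPKM in all libraries of any group, Trav calls for CD4 Treg against CD49lo were 9, those for CD8 Treg against CD49lo 2, and Trbv calls 1 for CD8 Treg against CD49lo and 2 for CD8 Treg against CD4 Treg. Trav17 was lost in both of these settings, and the 2 Trav calls for CD8 Treg against CD49lo in each were other segments. A pseudocount of 0.1 RPKM left 9 Trav calls for CD4 Treg against CD49lo, where 22.6% of all genes passed, against 22.3% in the test as described. Limma-voom left 2 Trav calls for CD4 Treg against CD49lo, 0 for CD8 Treg against CD49lo and 0 for CD8 Treg against CD4 Treg. Of all genes 22%, 5.18% and 13.7% passed by limma-voom in that order. Scaling to summed Trav reads gave 4 for CD8 Treg against CD49lo, beside 6.62% of all genes. With 1 library left out, Trav calls ranged from 1 to 4 (CD4 Treg against CD49lo), 0 to 0 (CD8 Treg against CD49lo) and 1 to 4 (CD8 Treg against CD4 Treg), and Trbv calls from 0 to 1 and from 0 to 2 for CD4 Treg against CD49lo and for CD8 Treg against CD4 Treg. Calls over all genes fell in each fit with a library left out as well. The cause of these changes was not tested, except that leaving out a library leaves 1 residual degree of freedom.

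CD4 Treg and CD49lo share replicate numbers 1 and 2. The differences between replicates correlated at -0.02 across 13298 genes (genes are not independent), and the labels give no shared animal or day, so the pairing is only a number. The fit with a replicate block called 21 Trav and 10 Trbv segments for CD4 Treg against CD49lo, where 3549 of all 13057 genes passed. The fit without the block on the same 4 libraries called 14 and 7, where 3049 genes passed. In the block fit, as under scaling to summed Trav reads, the SE followed the mean level and not a segment's own replicates.

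Pooled into subgroups, mean Trav distances were 21.5% (CD4 Treg and CD49lo), 18.4% (CD8 Treg and CD49lo) and 13.2% (the Treg types), and Trbv distances 26.3% and 17.7% for the first and last pair. Without Trbv1 and Trbv13-1, a setting chosen after seeing the data, the first 2 Trbv distances were 20.9% and 11.1%. None of the 16 called values of the named segments turned its sign under any setting that gave a value. They were chosen by their calls in the same libraries that each setting refits, so kept signs are no independent support. Of the 16, 1 stayed called with no filter, 8 under scaling to the chain, 9 with a filter of 1 RPKM and 10 under limma-voom. Either pseudocount or no scaling factor left 12 to 16.

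Depth limits Trav most: with 676 to 1246 Trav reads a library, a count of 0 allows 0.241% to 0.444% of the chain.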

Other observations

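Gamma delta receptor genes were measured outside the alpha and beta segments. Trgv2, a gamma chain V segment, had 0 and 0 reads in the CD4 Treg replicates, 35 in the CD8 Treg library, and 44 and 186 in CD49lo. Against the 3 reads per library that a count of 0 allows, it was 11.1-fold higher in CD8 Treg and 32.5-fold higher in CD49lo, by the mean, than in CD4 Treg. Both comparisons passed (limma, adjusted p = 0.0031 and 0.000243). By library, the value for CD49lo was 10.2-fold in replicate 1 and 54.8-fold in replicate 2. These values take the counts above 0 as exact. Tcrg-C2, a gamma constant gene, reached 0.961 and 2.56 RPKM in the CD4 Treg replicates, 12.8 in the CD8 Treg library, and 21.7 and 84.8 in CD49lo. The 6 measured gamma delta T cell markers summed to 9.53 and 6.04 RPKM in the CD4 Treg replicates, 24.3 in the CD8 Treg library, and 33.6 and 117 in CD49lo, with Sox13 at 0 in CD4 Treg replicate 2, CD8 Treg and CD49lo replicate 1. In CD49lo replicate 2, 84.8 RPKM of the sum came from Tcrg-C2 and 9.91 from Blk, which is also a B cell marker. CD49lo replicate 2, with the most of these transcripts, was also the library with the high Trbv1 share and the lowest ratio of Trav to Trac reads, 0.439 against 0.700 to 0.916 elsewhere.

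Joining segments held few reads. Trbj2-2 had 39 and 19 reads in CD4 Treg, 27 in CD8 Treg, 31 in CD49lo replicate 1 and 0 of 159 Trbj reads in CD49lo replicate 2, which allows a share of up to 1.89%. Trbj1 segments took 33.6% and 28.7% of Trbj reads in the CD4 Treg replicates, 42.7% in the CD8 Treg library, and 36.6% and 40.9% in CD49lo, with exact 95% intervals that overlap between all libraries. Traj18, the joining segment of the invariant natural killer T cell chain, had 42 and 42 reads in the CD4 Treg replicates, 36 in the CD8 Treg library, and 36 and 47 in CD49lo, and the counts of these segments include any RNA of the unjoined locus.

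Dntt, the enzyme that adds bases at V, D and J junctions, had 13 and 24 reads in the CD4 Treg replicates, 0 in the CD8 Treg library, and 27 in each CD49lo library (CD8 Treg against CD4 Treg adjusted p = 0.0444, limma). Rag1, Rag2 and Ptcra, expressed in thymocytes, had 0 to 5 reads a library.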
